A study of Mus musculus with 4 samples.

Results

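The aminoacyl-tRNA synthetases are the enzymes that attach each amino acid to its transfer RNA, and their transcripts were followed here in differentiated 3T3-L1 cells treated with risperidone. Members were found by gene symbol. They are the genes named by the letter of an amino acid followed by "ars", with or without a final 1 or 2, together with Eprs, Farsa and Farsb. The rule found 37 genes among the 16051 in the table, of which 20 encode cytosolic enzymes and 17, with symbols ending in 2, encode mitochondrial ones. Gars and Kars, counted with the cytosolic enzymes, serve both compartments. All 37 passed the filter of a mean of at least 1 FPKM and were tested with the 10243 genes that passed it.

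The cells are a mouse line of embryonic fibroblast origin, strain NIH SWISS per the labels, that can be driven to form fat cells in culture. All 4 libraries came from cells put through differentiation. The control libraries (replicates 1 and 2) were named untreated by the labels and received the vehicle, DMSO, by the study's methods, and the treated libraries (replicates 1 and 2) received 100 µM risperidone, an antipsychotic drug, for 48 h. RNA of 3 cultures was pooled for every library, so p-values measure the spread between pools, which may be technical.

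The libraries held 15883712 to 16374119 counts, and a synthetase transcript was covered by 42 to 8568 of them. Values between libraries are given as CPM, counts scaled to a common library size with TMM factors, and levels between genes as TPM, which is set per transcript length. The labels name fat cells, embryonic tissue and, in the extraction text, retina. Of 9 adipocyte markers in the table, the defining genes Adipoq, Cebpa, Cfd, Cidec, Lep and Plin1 were at 0.852 CPM or less in every library, while Fabp4 lay at 63.9 and 82.7 CPM in control and 31.4 and 37.7 with risperidone, Lpl at 888.5 and 947 CPM and then 781 and 769.9 CPM, and Pparg at 20.99 to 24.5 CPM in all libraries. Of 6 preadipocyte and fibroblast markers, Dlk1, Thy1 and Col1a1 were higher with risperidone (log2 fold changes 1.52, 1.05 and 0.99), Col3a1 was lower (-0.96), and Vim and Pdgfra did not pass, at 986.9 to 1040 CPM for Vim. These markers moved with treatment, and their part in the results was not tested. Of the 4 retina markers in the table, the sum was 3.07 to 3.97 CPM. The sum of 10 kidney tubule markers was 4.07 to 5.86 CPM in 3 libraries and 194.1 CPM in risperidone replicate 2. The results of the synthetases are also given without this library, and those of the other gene lists are not.

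An aminoacyl-tRNA synthetase couples its amino acid to ATP and then passes it to the matching transfer RNA, and the accuracy of this step sets the accuracy of translation. Cells keep separate sets for the cytosol and for the mitochondrion, both encoded in the nucleus, and the mitochondrial set serves the few proteins of the respiratory chain that the mitochondrial genome encodes. Class I and class II enzymes differ in the fold of their catalytic domain. In animals a number of the cytosolic enzymes sit together in the multisynthetase complex, held by the scaffold proteins Aimp1, Aimp2 and Eef1e1. Several cytosolic synthetase genes are known targets of ATF4, the transcription factor of the amino acid and stress response, which binds a composite element in their promoters.

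With risperidone, transcripts of the cytosolic enzymes were for the most part modestly higher, while the mitochondrial enzymes moved in both directions and held the largest changes. Among the 20 cytosolic genes, 14 were higher, 1 was lower and 5 did not pass an adjusted p of 0.05 in edgeR's quasi-likelihood test. Among the 17 mitochondrial genes, 5 were higher, 5 were lower and 7 did not pass. Over all genes tested, 64.3% passed in either direction, 32.1% higher and 32.2% lower. So passing the test was about as common over the 37 synthetases (67.6%) as over all genes, and the cytosolic share higher, 70%, stood above the background while the mitochondrial shares, 29.4% in each direction, were close to it. The median log2 fold change was 0.23 for cytosolic and 0.11 for mitochondrial genes, against 0.0004 for all genes tested. The libraries of the groups did not overlap for 33 of the 37 genes, or 89.2%, where 82.9% of all genes did not overlap.

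**Figure D1:**
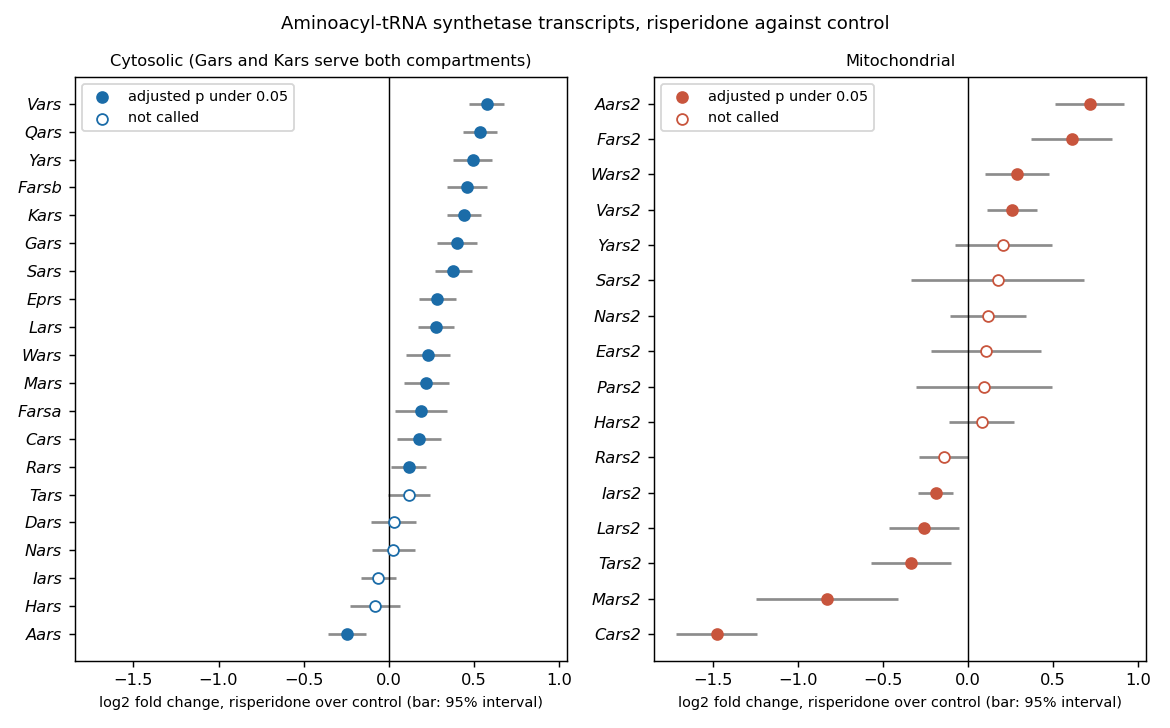
Log2 fold change of the synthetase transcripts named in the text, risperidone over control, with its 95% interval, in 2 libraries per group; filled points passed an adjusted p of 0.05. Cytosolic genes (left) lie between -0.25 and 0.58, and mitochondrial genes (right) between -1.48 and 0.71.

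The split between higher and lower depended on how libraries were scaled. On TPM, where the median of all genes tested shifted by -0.22 on the log2 scale and calls over all genes became 1536 higher and 5292 lower in place of 3287 and 3303, cytosolic genes counted 7 higher and 5 lower and mitochondrial genes 2 higher and 6 lower. With library size as the only scaling, the counts were 9 higher and 3 lower for cytosolic and 4 higher and 6 lower for mitochondrial genes. Relative to the median of all genes, the cytosolic median was 0.18 to 0.25 higher and the mitochondrial median 0.051 to 0.14 higher in each of the 15 ways of processing, the reported one included. For 12 genes the call and its direction held in every alternative that tested them. These were Vars, Qars, Yars, Farsb, Kars, Gars and Sars (higher), Aars (lower), Aars2 and Fars2 (higher), and Mars2 and Cars2 (lower).

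**Figure D2:**
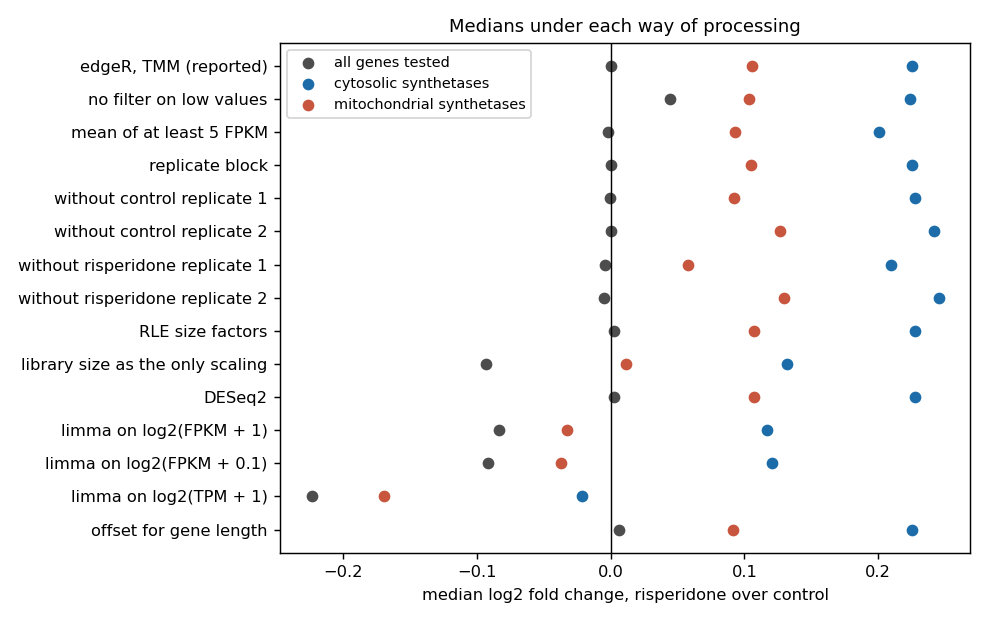
Median log2 fold change of cytosolic synthetases, mitochondrial synthetases and all genes tested (x axis) under the reported processing and each alternative (y axis). The points of all genes tested lie left of both synthetase medians in each row, at -0.22 under TPM and 0.0004 as reported.

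By level, the cytosolic enzymes stood above their mitochondrial partners. In control cells mean TPM ran from 45.2 for Mars, the methionine enzyme, to 303 for Aars, the alanine enzyme, among cytosolic genes, and from 3.27 for Sars2, for serine, to 93.9 for Iars2, for isoleucine, among mitochondrial genes. Mars was at 45.1 and 45.3 TPM in control and 43.9 and 44.9 with risperidone. Sars2 was at 3.14 and 3.40 TPM in control and 3.29 and 2.80 with risperidone. The libraries of the groups overlapped for Sars2, and for Mars the treated libraries lay just below the controls on this scale. In the 18 pairings of a mitochondrial enzyme with the cytosolic gene or subunit for the same amino acid, the cytosolic transcript was higher in TPM in all 4 libraries in 17. The exception was Iars2, at 93.3 and 94.4 TPM in control and 66.8 and 73.1 with risperidone, against 76.5 and 79.2 and then 62.0 and 64.6 for Iars. Aars held the highest level in control (305 and 302 TPM), and with risperidone (223 and 218 TPM) it came after Gars, at 282 and 272 TPM.

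**Figure D3:**
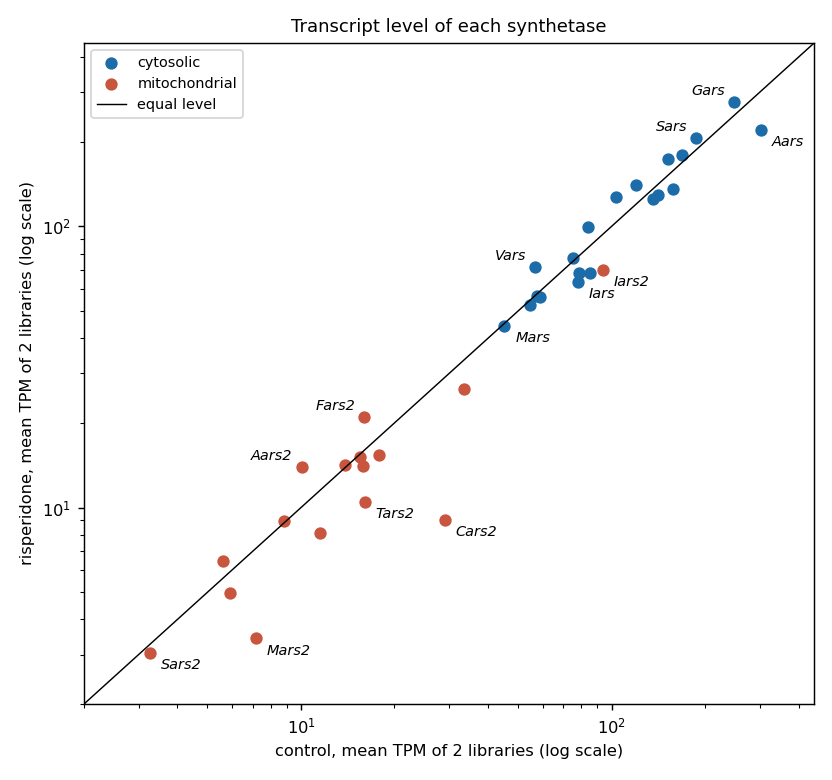
Mean TPM of the synthetases named in the text in control (x axis) and risperidone (y axis) libraries, 2 per group, on log scales, with a line of equal level. Cytosolic genes lie from 45.2 TPM upwards in control, mitochondrial genes below them except Iars2 at 93.9 TPM, and Cars2 lies farthest below the line, at 29.0 and 9.06 TPM.

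Summed over the genes of a compartment, the cytosolic transcripts stood at 2371 and 2410 TPM in control and 2380 and 2367 TPM with risperidone. The mitochondrial transcripts stood at 316 and 313 TPM in control and 252 and 260 TPM with risperidone. On TMM-scaled CPM, the cytosolic sums were 3152 and 3215 in control and 3777 and 3594 with risperidone, and the mitochondrial sums 399.8 and 399.7 and then 388 and 391, so the mitochondrial fall was small on this scale and the cytosolic sum higher. The mitochondrial part of all synthetase TPM was 11.8% and 11.5% in control and 9.57% and 9.91% with risperidone. Without Cars2 and Iars2 these shares were 7.56% and 7.28% and then 6.89% and 6.997%, so these 2 genes held most of the distance between groups. These shares are a description, and no test was made on them. In bulk RNA, fewer cells of a type and less RNA per cell cannot be told apart.

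The largest change in the family was that of Cars2, which charges the mitochondrial cysteine transfer RNA and is also known to make cysteine persulfides (chromosome 8, 11514017 to 11550781, minus strand, GRCm38.p6). Cars2 was at 22.9 CPM in both control libraries and at 8.17 and 8.30 CPM with risperidone. Every treated library lay far below the controls, and the replicates of a group lay close together. The fold was 0.359, a log2 fold change of -1.48 (SE 0.11, adjusted p = 7.7e-07, edgeR), and it ran from -1.58 to -1.36 over the alternatives. Of all genes tested, 2.15% had a larger absolute log2 fold change. Its cytosolic partner Cars was at 66.8 and 67.8 CPM in control and at 75.5 and 76.5 CPM with risperidone, a log2 fold change of 0.18 (SE 0.059, adjusted p = 0.022), which on TPM was -0.063. In TPM, Cars stood at 2.02 times Cars2 in control and at 6.19 times with risperidone.

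Mars2, the mitochondrial methionine enzyme, which supplies the methionine used to start mitochondrial proteins, also fell (chromosome 1, 55237177 to 55240058, plus strand). It was at 8.89 and 9.55 CPM in control and 4.21 and 6.18 CPM with risperidone. The groups did not overlap, but the treated libraries lay farther apart than for Cars2. The log2 fold change was -0.83 (SE 0.19, adjusted p = 0.0028), -0.58 without risperidone replicate 1 and -1.13 without risperidone replicate 2. Its cytosolic partner Mars was at 59.6 and 60.2 CPM in control and 70.7 and 69.0 CPM with risperidone, a log2 fold change of 0.22 (SE 0.061, adjusted p = 0.0077) that was -0.026 on TPM. An exonic stretch of 68 bases of Mars overlaps Ddit3 on the opposite strand. Ddit3 was at 85.5 and 90.3 CPM in control and 397 and 305 CPM with risperidone, and use of strand in the counting is not given in the sources used here, so reads of that stretch cannot be told apart.

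The remaining mitochondrial genes that fell were Tars2, Lars2 and Iars2, and each did so by less than Mars2. Tars2, the threonine enzyme, was at 17.1 and 17.4 CPM in control and 13.1 and 14.2 CPM with risperidone (log2 fold change -0.34, SE 0.11, adjusted p = 0.017). Lars2, the leucine enzyme, was at 20.02 and 20.4 CPM and then 17.7 and 16.02 CPM (log2 fold change -0.26, SE 0.094, adjusted p = 0.031). Iars2 was at 148.6 and 151 CPM and then 128.8 and 134 CPM (log2 fold change -0.19, SE 0.047, adjusted p = 0.0045). The treated libraries lay below both controls in each case. The Tars2 and Lars2 calls were lost without either control library and that of Iars2 without control replicate 2. Without control replicate 2 the adjusted p rose to 0.13 for Tars2, 0.20 for Lars2 and 0.071 for Iars2, and without control replicate 1 to 0.088 for Tars2 and 0.15 for Lars2. Without risperidone replicate 2, Lars2 was at 0.14. With DESeq2 the adjusted p was 0.091 for Tars2 and 0.16 for Lars2, and Lars2 also missed the threshold without the filter (0.061) and with the length offset (0.098). Iars2 shares 2034 exonic bases with Rab3gap2 on the opposite strand in GENCODE, while their RefSeq gene spans overlap by 115 bases. The log2 fold change of Rab3gap2 was 0.084 (adjusted p = 0.13, edgeR).

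Among the mitochondrial genes that rose, Aars2 and Fars2 led. Aars2 charges alanine transfer RNA (chromosome 17, 45503515 to 45520843, plus strand) and was at 15.5 and 14.8 CPM in control and 26.2 and 23.6 CPM with risperidone. Its log2 fold change was 0.71 (SE 0.091, adjusted p = 4.7e-05), and its cytosolic partner moved the other way. Fars2 charges phenylalanine transfer RNA as a single chain (chromosome 13, 36117428 to 36537595, plus strand) and was at 13.0 and 12.2 CPM and then 20.2 and 18.4 CPM. Its log2 fold change was 0.61 (SE 0.11, adjusted p = 5.0e-04). For both genes the treated libraries lay well above the controls, and both calls held in all 14 alternatives.

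Wars2 and Vars2, for tryptophan and valine, rose by less. Wars2 was at 18.3 and 17.5 CPM in control and 21.6 and 22.1 CPM with risperidone (log2 fold change 0.29, SE 0.085, adjusted p = 0.012). Vars2 was at 29.3 and 26.8 CPM and then 33.1 and 34.1 CPM (0.26, SE 0.066, adjusted p = 0.0051). The treated libraries lay above the controls, and the distance between groups was small beside that of Aars2. Without control replicate 2 the adjusted p was 0.15 for Wars2 and 0.061 for Vars2, and without control replicate 1 it was 0.062 for Wars2. With DESeq2 the adjusted p was 0.098 for Wars2 and 0.072 for Vars2, and on TPM the log2 fold changes were 0.026 and 0.022, so neither passed. Over the whole mitochondrial set, without control replicate 2 the counts fell to 2 higher and 2 lower, and without control replicate 1 to 4 higher and 3 lower. DESeq2 gave 3 higher and 3 lower.

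The 7 mitochondrial genes that did not pass were Yars2, Sars2, Nars2, Ears2, Pars2, Hars2 and Rars2, with log2 fold changes from -0.14 for Rars2 to 0.21 for Yars2. Their 95% intervals differed in width with depth. For Hars2 the interval ran from -0.11 to 0.27, whereas for Sars2, the gene with the fewest counts, it ran from -0.34 to 0.68, which takes in a change of the size seen for Fars2. Ears2, for glutamate, had a log2 fold change of 0.11 on counts and 0.34 on FPKM, since the length implied by its deposited counts and FPKM was 20.7% shorter with risperidone.

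**Figure D4:**
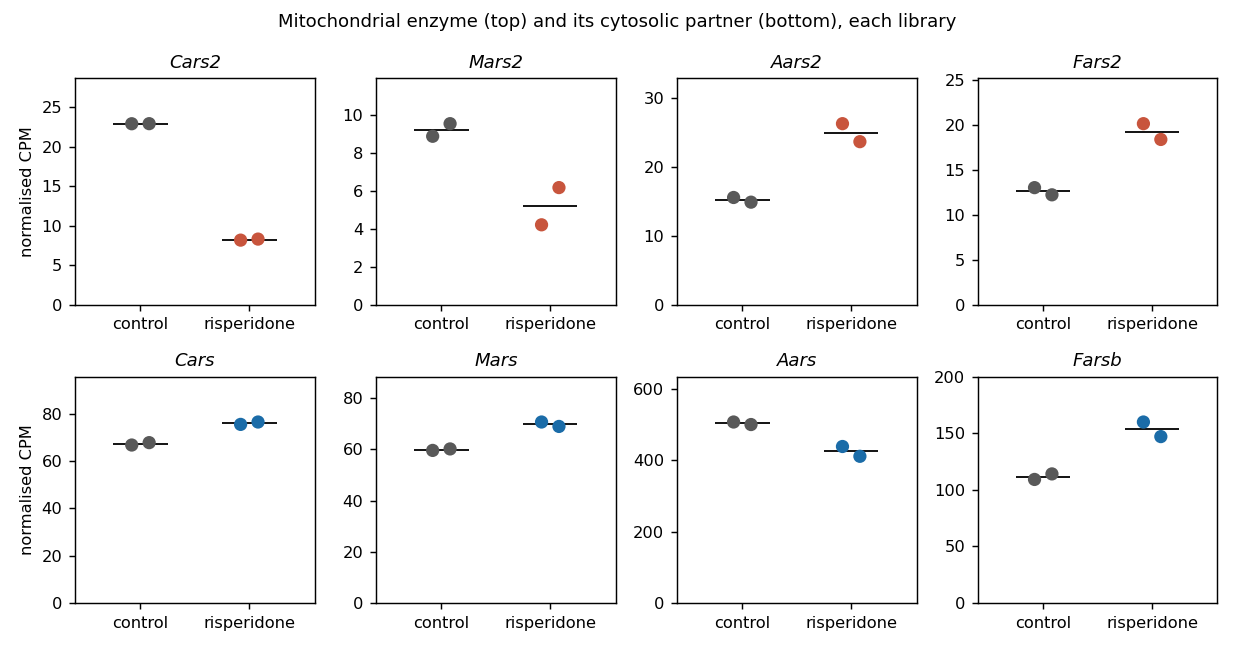
Normalised CPM in each library for 4 mitochondrial enzymes (top) and a cytosolic partner for the same amino acid (bottom), with axes from 0; points are libraries, 2 per group, and lines are group means. Cars2 drops from 22.9 CPM to 8.17 and 8.30 CPM while Cars lies between 66.8 and 76.5 CPM, and Aars2 and Aars move apart in direction.

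In the cytosol, 6 of the 8 enzymes of the multisynthetase complex were higher, none was lower and 2 did not pass, with a median log2 fold change of 0.25. Outside the complex, 8 of 12 were higher, 1 was lower and 3 did not pass, with a median of 0.21. In each set 75% passed, against 64.3% of all genes tested, and 75% of the complex and 66.7% of the others were higher, against 32.1%. Of the complex, Qars, for glutamine, led, at 115 CPM in both control libraries and 169 and 164 CPM with risperidone (log2 fold change 0.54, SE 0.046, adjusted p = 2.6e-06). Kars, the lysine enzyme of both compartments, was at 139.8 and 140 CPM and then 194 and 186 CPM (0.44, SE 0.046, adjusted p = 1.1e-05). For both, the treated libraries lay far above the controls, which were nearly equal. Eprs, a fused enzyme for glutamate and proline, was at 371 and 375 CPM and then 469 and 439 CPM (0.29, SE 0.050, adjusted p = 4.8e-04). Lars, for leucine, was at 126 and 133 CPM and then 158 and 157 CPM (0.28, SE 0.048, adjusted p = 3.9e-04). On TPM neither passed, with log2 fold changes of 0.094 for Eprs (adjusted p = 0.12) and 0.040 for Lars (adjusted p = 0.55).

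Rars, for arginine, was the complex member closest to the threshold, at 126 and 129.7 CPM in control and 139.7 and 137.5 CPM with risperidone (log2 fold change 0.12, adjusted p = 0.043, and -0.12 on TPM). Its call was lost without control replicate 1 (adjusted p = 0.33), without control replicate 2 (0.16) and without risperidone replicate 1 (0.096). For Mars, given above with Mars2, the adjusted p was 0.056 without control replicate 1. The complex members Dars, for aspartate, and Iars, for isoleucine, did not pass, with log2 fold changes of 0.030 (95% interval -0.10 to 0.16) and -0.060 (-0.16 to 0.042). These intervals leave out changes as large as those of Qars or Kars.

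The largest cytosolic rise was that of Vars, for valine, which works outside this complex (chromosome 17, 35000907 to 35016329, plus strand). Vars was at 103 and 105 CPM in control and 153 and 157 CPM with risperidone, a log2 fold change of 0.58 (SE 0.046, adjusted p = 1.6e-06). Yars, for tyrosine, was at 106 and 109 CPM and then 157 and 145 CPM (0.49, SE 0.052, adjusted p = 1.2e-05). Farsb, the beta subunit of the phenylalanine enzyme, was at 109 and 114 CPM and then 160 and 147 CPM (0.46, SE 0.054, adjusted p = 2.6e-05). In these 3 genes the treated libraries lay above both controls, by folds of 1.38 to 1.49. Farsa, the alpha subunit of the same enzyme, was at 41.5 and 45.2 CPM and then 51.4 and 47.6 CPM (0.19, SE 0.069, adjusted p = 0.031). Its adjusted p was 0.17 without control replicate 1 and 0.14 without risperidone replicate 1, and on TPM its log2 fold change was -0.047. Farsb shares 248 exonic bases with Sgpp2 on the opposite strand.

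Gars, the glycine enzyme of both compartments, was at 259 and 266 CPM in control and 361 and 333 CPM with risperidone (log2 fold change 0.40, SE 0.052, adjusted p = 5.7e-05). Sars, for serine, which also feeds the selenocysteine pathway, was at 308 CPM in both control libraries and 413 and 388 CPM with risperidone (0.38, SE 0.049, adjusted p = 5.6e-05). Wars, for tryptophan, was at 71.6 and 70.2 CPM and then 83.9 and 82.3 CPM (0.23, SE 0.058, adjusted p = 0.0048). Each of these genes was higher in both treated libraries than in either control. The Wars call was lost without control replicate 2 (adjusted p = 0.066) and its log2 fold change was -0.017 on TPM, and the Cars call was lost without control replicate 1 (adjusted p = 0.16) and without control replicate 2 (0.095). DESeq2 gave 11 cytosolic genes higher, without Cars (adjusted p = 0.080), Farsa (0.125) and Rars (0.15).

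Aars was the exception among cytosolic genes (chromosome 8, 111027778 to 111055569, plus strand). It was at 507 and 500.4 CPM in control and 439 and 411 CPM with risperidone, and both treated libraries lay below both controls. The log2 fold change was -0.25 (SE 0.050, adjusted p = 0.0014), and it lay between -0.46 and -0.19 over the 14 alternatives, past the threshold in each. The cytosolic genes outside the complex that did not pass were Tars, Nars and Hars, for threonine, asparagine and histidine, with log2 fold changes of 0.12, 0.028 and -0.080. Tars passed without risperidone replicate 2 (0.18, adjusted p = 0.012), with which the cytosolic count became 15 higher and 1 lower and the mitochondrial count 5 higher and 4 lower. Leaving out this library, the one with kidney tubule markers, changed the calls of Tars and Lars2 only among the 37 genes. Hars and Hars2 share 195 exonic bases on opposite strands in GENCODE, while their RefSeq gene spans overlap by 4 bases.

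Partners for the same amino acid were set side by side. Both partners passed in the same direction in 4 of the 18 pairings, which were Fars2 with Farsa, Fars2 with Farsb, Wars2 with Wars, and Vars2 with Vars. Fars2 is thus counted against both subunits. They passed in opposite directions in another 4, and in the rest at least 1 partner did not pass. Over all genes tested 64.3% passed, so no trait of the partners is read from these counts. In Aars2 with Aars the mitochondrial enzyme was the higher one, and in Lars2 with Lars, Mars2 with Mars and Cars2 with Cars it was the lower one. Of these cytosolic partners, Mars and Cars changed sign and Lars did not pass on TPM, as given above. The difference between the partners' fold changes was not itself tested. In TPM, Aars stood at 30.2 times Aars2 in control and 15.8 times with risperidone, and Mars at 6.33 times Mars2 in control and 13.0 times with risperidone.

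**Figure D5:**
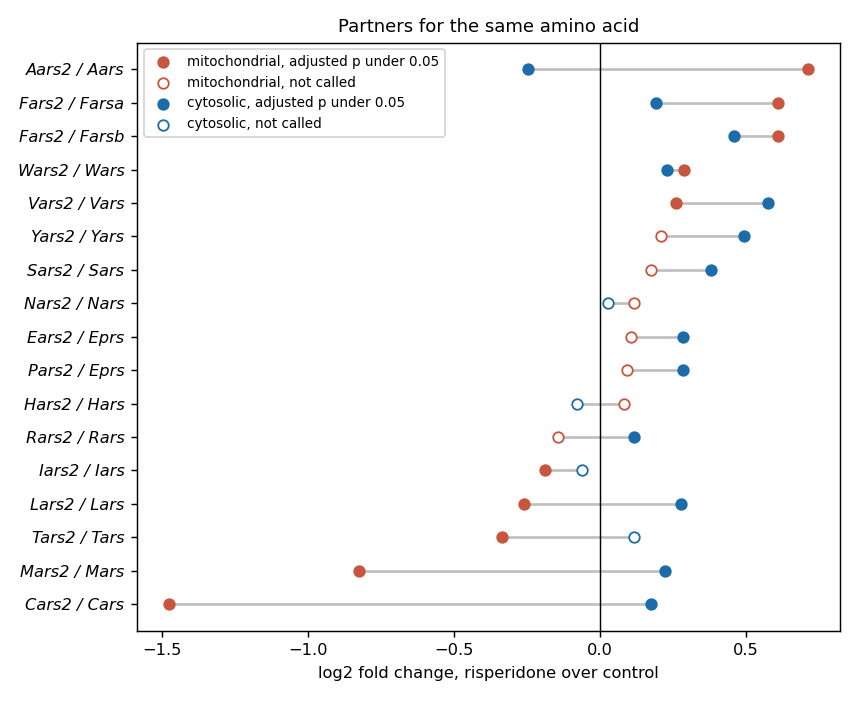
Log2 fold change, risperidone over control, of the mitochondrial enzymes named in the text and the cytosolic gene for the same amino acid, joined by a line, in 17 pairings; filled points passed an adjusted p of 0.05. The longest lines are those of Cars2 and Cars (-1.48 and 0.18), Mars2 and Mars (-0.83 and 0.22) and Aars2 and Aars (0.71 and -0.25).

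By catalytic class, 8 of 9 cytosolic class I genes were higher and none was lower, and of 10 cytosolic class II genes 5 were higher and 1 was lower, with Eprs holding both classes. In mitochondria, 2 of 9 class I genes were higher and 4 were lower, and of 8 class II genes 3 were higher and 1 was lower. Over all genes tested 32.1% were higher and 32.2% lower, beside mitochondrial shares of 22.2% higher and 44.4% lower for class I and 37.5% higher and 12.5% lower for class II. No difference between classes was tested.

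The cytosolic genes known as ATF4 targets were set beside the other cytosolic genes. Of 12 genes listed as ATF4-related, 8 were higher, 1 was lower and 3 did not pass, with a median log2 fold change of 0.23. Of the other 8 cytosolic genes, 6 were higher, none was lower and 2 did not pass, with a median of 0.32. In each set 75% passed, against 64.3% of all genes tested, and 66.7% of the ATF4-related and 75% of the others were higher, against 32.1%. Other ATF4-related genes of the stress and amino acid response, 16 in number, counted 6 higher, 7 lower and 3 not passing, or 37.5% higher and 43.8% lower, against 32.1% and 32.2% of all genes tested. Among them Ddit3, a transcription factor of the stress response, rose with a log2 fold change of 1.998 (SE 0.10). Ddit4, an inhibitor of mTOR signalling, was at 147 and 144 CPM in control and 36.2 and 40.3 CPM with risperidone, and Slc7a11, the cystine transporter, at 19.8 and 19.1 CPM and then 4.72 and 6.50 CPM. Their log2 fold changes were -1.93 (SE 0.063) and -1.79 (SE 0.15).

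Promoter sequence was examined because members with a known response element could be set beside their values. RefSeq promoters (GRCm38.p6) were matched for 27 of the 37 genes, and 250 bases before each start were searched on both strands for TGATGNAA, the core of the ATF4 composite element, CACGTG, the E-box, and GCGCANGCG, bound by NRF1. No match of a motif overlapped one of another motif in these genes. The ATF4 core was found in 3 of 13 cytosolic promoters (23.1%) and in none of 14 mitochondrial ones, against 2.20% of the promoters of genes tested and 3.91% of all promoters. The E-box was found in 3 of 13 cytosolic promoters (23.1%) and in none of 14 mitochondrial ones, against 10.2% of genes tested and 6.86% of all, and the NRF1 motif in 2 of 13 and 2 of 14, against 14.2% and 5.86%. No direction was read from these genes. A match is a description of letters only.

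The windows of Gars and Tars, 2 of the 3 genes with the ATF4 core, are shown with the ATF4 core in capitals, as read on the gene's strand, followed by those of Cars2 and Mars2, the genes that fell most, in which no motif was found. Bases within an annotated exon (GENCODE vM21) are left out. The windows lie at chr6:55037881-55038000 (plus strand) for Gars, chr15:11399666-11399778 (minus) for Tars, chr8:11550784-11550891 (minus) for Cars2 and chr1:55237057-55237176 (plus) for Mars2.
Gars: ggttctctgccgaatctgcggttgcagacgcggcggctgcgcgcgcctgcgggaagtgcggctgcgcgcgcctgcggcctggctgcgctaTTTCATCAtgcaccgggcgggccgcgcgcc
Tars: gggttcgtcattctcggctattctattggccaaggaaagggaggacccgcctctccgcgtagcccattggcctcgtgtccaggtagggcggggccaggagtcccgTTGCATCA
Cars2: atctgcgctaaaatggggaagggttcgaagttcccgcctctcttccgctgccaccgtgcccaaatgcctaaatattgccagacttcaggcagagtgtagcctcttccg
Mars2: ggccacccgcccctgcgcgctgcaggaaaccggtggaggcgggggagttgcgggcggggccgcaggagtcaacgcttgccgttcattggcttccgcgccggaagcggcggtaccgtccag

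In Gars and Tars the core was read on the strand opposite to the gene, so the capitals show its reverse complement, and the match begins 30 and 15 bases before the start.

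The proteins that work beside the synthetases were mixed. Of the scaffold genes, Aimp1 was at 59.3 and 62.5 CPM in control and 102 and 89.6 CPM with risperidone (log2 fold change 0.66, SE 0.072, adjusted p = 1.7e-05). Eef1e1 was at 11.5 and 10.8 CPM and then 20.4 and 16.3 CPM (0.72, SE 0.13, adjusted p = 6.7e-04). Aimp2 was at 25 and 26.3 CPM and then 22.1 and 20.5 CPM (-0.27, SE 0.077, adjusted p = 0.0097). Thus Aimp1 and Eef1e1 were higher in both treated libraries and Aimp2 was lower in both, in a complex whose enzymes were mostly higher.

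Mitochondria lack a glutaminyl-tRNA synthetase of their own and make glutaminyl-tRNA with an amidotransferase, whose subunits are Qrsl1, Gatb and Gatc, and Mtfmt formylates the initiator methionyl-tRNA that Mars2 makes. Of these 4 genes, 3 were lower and Qrsl1 did not pass (0.38, adjusted p = 0.12), where 32.2% of all genes tested were lower. Mtfmt was at 19.4 and 20.7 CPM in control and 14.8 and 15.0 CPM with risperidone (-0.43, SE 0.096, adjusted p = 0.0025). Gatb and Gatc had log2 fold changes of -0.41 (SE 0.15) and -0.34 (SE 0.082). Every one of these 3 lay below both controls in both treated libraries.

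Of 7 genes of the selenocysteine and editing list, 2 were higher, 1 was lower and 4 did not pass, so that 42.9% passed, below the 64.3% of all genes tested. The 7 include Tarsl2, a threonyl-tRNA synthetase that the symbol rule does not match. Tarsl2 did not pass (log2 fold change 0.019, adjusted p = 0.89, edgeR). Aarsd1, which clears mischarged alanyl-tRNA, rose with a log2 fold change of 0.65 (SE 0.085), Pstk, a kinase of the selenocysteine pathway, rose by 0.36 (SE 0.12), and Dtd2, an editing deacylase, fell by 0.47 on the log2 scale (SE 0.078). Of 15 genes of transfer RNA maturation and export, 4 were higher, 2 were lower and 9 did not pass, so that 40% passed, also below that share. Xpot, the exporter of transfer RNA from the nucleus, was at 135 and 139 CPM in control and 87.9 and 88.6 CPM with risperidone (-0.63, SE 0.047, adjusted p = 9.6e-07). Rtcb, the ligase that joins the exons of spliced transfer RNA, rose by 0.47 (SE 0.051), and Clp1, an RNA kinase, fell by 0.48 (SE 0.13).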

How the data were processed

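Total RNA of 3T3-L1 cells was sequenced in 4 libraries on an MGISEQ-2000 instrument, and the authors removed adaptor, poly-N and low-quality reads. The submitters' processing notes name Bowtie2, RSEM, DESeq2 and GRCm38.p6, without roles. The estimated counts (expected counts), the FPKM values and the TPM values were deposited by the authors in a table of 16051 genes, and FPKM was computed on their DC.TOM platform. Dose, time, vehicle and pooling come from the study's methods.

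Counts were rounded (2 of 148 synthetase values were not whole), with a filter of 1 FPKM on the mean of the libraries. Risperidone was compared with control by the two-sided quasi-likelihood F-test of edgeR 4.0.16 in R 4.3.3, with TMM factors of 1.03, 1.03, 0.963 and 0.973 (control 1, control 2, risperidone 1, risperidone 2), Benjamini-Hochberg adjustment over 10243 genes and a threshold of 0.05. The biological coefficient of variation was 0.0468. Alternatives, 14 in number, used DESeq2 1.42.0, limma 3.58.1 on log2(FPKM + 1), log2(FPKM + 0.1) and log2(TPM + 1), other filters and scalings, a length offset, a replicate block and each library left out. A simulation changed 200 of 10243 genes, as many higher as lower, where 64.3% of genes tested passed in the data. It therefore cannot show how calls fare where most genes change and the scaling shifts. On these simulated data edgeR recovered 98% of changes of 1 and 89% of changes of 0.5 on the log2 scale, with 10 false calls among 10243 genes. With a trend with gene length simulated between groups, it made 4731 false calls, against 9 with the length offset, under which 12 cytosolic genes were higher and 1 lower and 5 mitochondrial genes were higher and 5 lower.

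The synthetases are named, except 1 gene whose own result is not reported here and which stays in the counts and medians, with all scaffold genes and up to 3 called genes with the largest change from each other list. Members and lists were chosen with earlier results of these data known. Tarsl2 is named in addition. Prorp, Adig, Rcvrn and Gnat1 were not analysed here. Exonic overlaps were taken from GENCODE vM21 exons, and overlaps of gene spans from RefSeq where so named. Tables and figures were made with Python 3.11.15, pandas 2.3.3 and matplotlib 3.10.9.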

Additional observations from a re-analysis of the deposited data

How the results depend on the processing

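With RLE size factors all 37 synthetases kept their call, and without the filter 34 did. Cytosolic genes higher numbered 9 with library size as the only scaling and with limma on either FPKM scale and 7 on TPM, with 3, 3, 3 and 5 lower, and 10 to 15 when a library was left out. Mitochondrial genes higher numbered 3 with DESeq2 and with limma on FPKM, 2 on TPM and 2 to 5 with a library left out, and those lower 3 at 5 FPKM or more, 3 with DESeq2 and 2 to 5 with a library left out. The cytosolic median was 0.13 with library size, 0.12 with either pseudocount on FPKM and -0.022 on TPM. The mitochondrial median was 0.012 with library size, -0.033 and -0.037 on FPKM with pseudocounts of 1 and 0.1, -0.17 on TPM, and 0.058 to 0.13 with a library left out. The median of all genes was 0.044 without the filter, -0.0017 at 5 FPKM or more, 0.0022 with RLE, -0.093 with library size, 0.0021 with DESeq2, -0.084 and -0.092 on FPKM, -0.22 on TPM, 0.0061 with the length offset, and -0.0054 to 0.0000 with a library left out. On TPM the log2 fold change of 13 genes changed sign, for Wars (-0.017), Mars (-0.026), Farsa (-0.047), Cars (-0.063), Rars (-0.12), Tars (-0.12), Yars2 (-0.032), Sars2 (-0.080), Nars2 (-0.17), Pars2 (-0.22), Hars2 (-0.20), Dars (-0.21) and Nars (-0.21), Dars and Nars past the threshold, where the median of all genes moved by a like amount. With the replicate block 13 cytosolic genes were higher, and only Rars lost its call (adjusted p = 0.091). Same-numbered libraries deviated with a correlation of -0.07 over 10243 genes. With 2 libraries per group this cannot show whether they were paired, which the study's methods do not state. Low counts, from 42 per library for Sars2, limit what can be seen in the lowest mitochondrial genes.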
